A study of Mus musculus with 12 samples.

Results

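The mRNAs of 10 genes that mark the connective tissue and vessel wall of skeletal muscle were followed in tibialis anterior (TA) muscles of mice, with and without the human long noncoding RNA *FRAIL1*. They were taken by gene symbol, as known markers of these cell types, and all 10 were found among the 27179 genes of the count table. The 5 fibro-adipogenic markers are *Pdgfra*, *Pdgfrb*, *Ly6a*, *Pi16* and *Dpp4*, the 3 tenocyte markers are *Scx*, *Tnmd* and *Mkx*, and the 2 smooth muscle markers are *Acta2* and *Tagln*. The animals were 6 wild-type male C57BL/6N mice, obtained at 6 to 8 weeks of age. In each mouse the TA of 1 leg received 10 μg of empty plasmid pcDNA3 (Control muscle, n = 6) and the TA of the other leg received 10 μg of plasmid that encodes *FRAIL1* (*FRAIL1* muscle, n = 6), and muscles were taken after 7 days. According to the methods, a cytomegalovirus promoter drove *FRAIL1*, and both legs were injected with hyaluronidase and electroporated, so Control muscles went through the same procedure. *FRAIL1* is a human transcript that the mouse count table does not list, so its own level was not measured here.

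As background, muscle fibers lie in a connective tissue made and kept by fibro-adipogenic progenitors, interstitial mesenchymal cells that can turn into fibroblasts or adipocytes and that help satellite cells repair damaged fibers. These cells carry the receptor tyrosine kinase PDGFRα and the surface protein Sca-1, and a subset around larger vessels is marked by *Pi16* and *Dpp4*. Tenocytes form the tendon and its junction with muscle, and their fate depends on the transcription factors Scleraxis and Mohawk. Smooth muscle cells wrap arterioles and hold the contractile proteins α-smooth muscle actin and transgelin, whose genes respond to serum response factor.

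The counts are sums over all cells of the tissue, so fewer cells of a type and less RNA per cell cannot be told apart. Total counts ranged from 44848322 to 60527385 per muscle. Levels are given in CPM, counts brought to a common library size with edgeR's TMM factors (reads of the gene per 10 to the power of 6 reads). Muscle fiber genes made up 97771 to 145230 CPM in each muscle (summed over 6 genes such as *Ckm*, creatine kinase of muscle), and no gene of the cell type lists was at 0 in all 12 muscles. The *FRAIL1* muscle numbered 5 stood apart from the others. On the first principal component, which held 41.2% of the variance, it lay at 49.5, the other *FRAIL1* muscles between -5.08 and 21.0, and Control muscles between -20.2 and -9.44. Values without it are therefore given beside some of the results that it moves, and results without such a value may depend on it as well.

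Per kilobase of exon, the order of the markers in Control muscles was *Ly6a*, *Acta2*, *Tagln*, *Pdgfrb*, *Scx*, *Tnmd*, *Pi16*, *Pdgfra*, *Dpp4* and *Mkx*. The length was the union of exons over all GENCODE transcripts of a gene, while reads were counted per NCBI Gene ID. For *Scx* this union is 1 block of 2007 bases, the whole span of the gene. The order holds for these lengths, and no other lengths were tried. *Ly6a* was at 69.1 ± 14.7 CPM per kilobase (SD, n = 6), *Acta2* at 35.5 ± 4.70 and *Mkx* at 0.187 ± 0.0477. The ranges of *Scx*, *Tnmd*, *Pi16* and *Pdgfra* overlapped between neighbours in that order, and those of the other neighbours did not. The order of the means was the same in *FRAIL1* muscles, where the ranges of *Ly6a* and *Acta2*, and those of *Dpp4* and *Mkx*, overlapped as well.

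Of the 10 markers, *Scx* was higher in *FRAIL1* muscles past the threshold and no marker was called lower by edgeR or DESeq2. All 10 passed the filter on low counts, and the threshold was an adjusted p of 0.05 in edgeR's quasi-likelihood test, adjusted over 15502 genes. Among all genes tested 6.28% passed this threshold, 4.43% higher and 1.85% lower, so 1 of 10 markers is near the background. With a block for the mouse 14.1% of all genes passed in edgeR, 7.48% higher and 6.62% lower, and *Scx* was again the marker called. At an unadjusted p under 0.05 there were 4 markers, *Pdgfra*, *Scx* and *Acta2* with higher and *Tagln* with lower levels, against 27.7% of all genes. Fold changes had both signs, 5 positive and 5 negative, with a median log2 fold change of 0.06 against 0.0096 over all genes. The 3 tenocyte markers all had positive fold changes (median 0.57 on the log2 scale), 4 of the 5 fibro-adipogenic markers had negative ones (median -0.11), and the smooth muscle markers differed in sign.

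**Figure D1:**
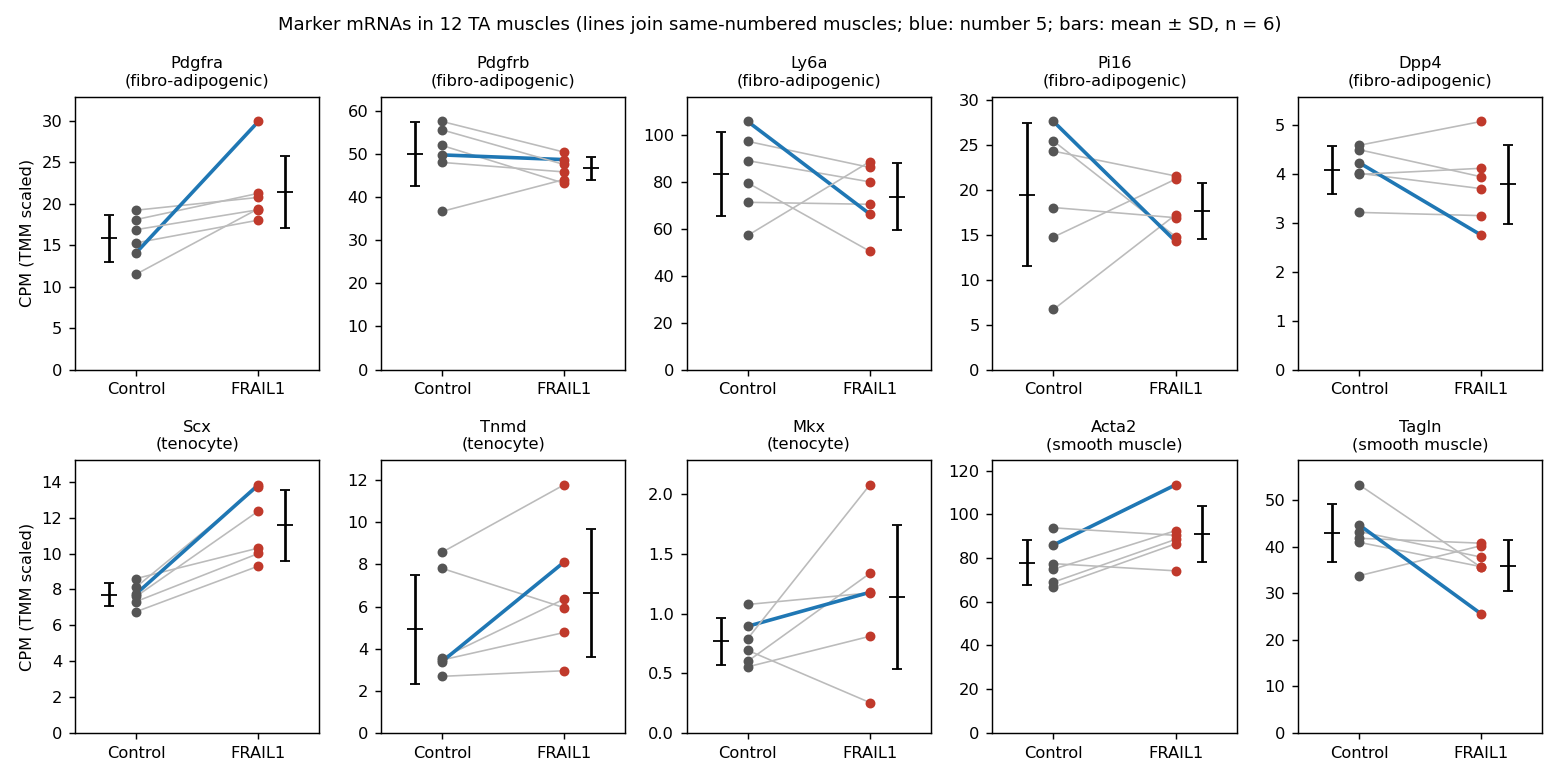
Level of each marker in CPM (vertical axis, from 0) in the 6 Control and 6 *FRAIL1* muscles, with lines between muscles of the same number and bars for mean ± SD. The 6 *FRAIL1* muscles of *Scx* lie above the 6 Control muscles, *Pdgfra* goes up along every line while its groups overlap, and in the other 8 panels the lines go both ways.

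**Figure D2:**
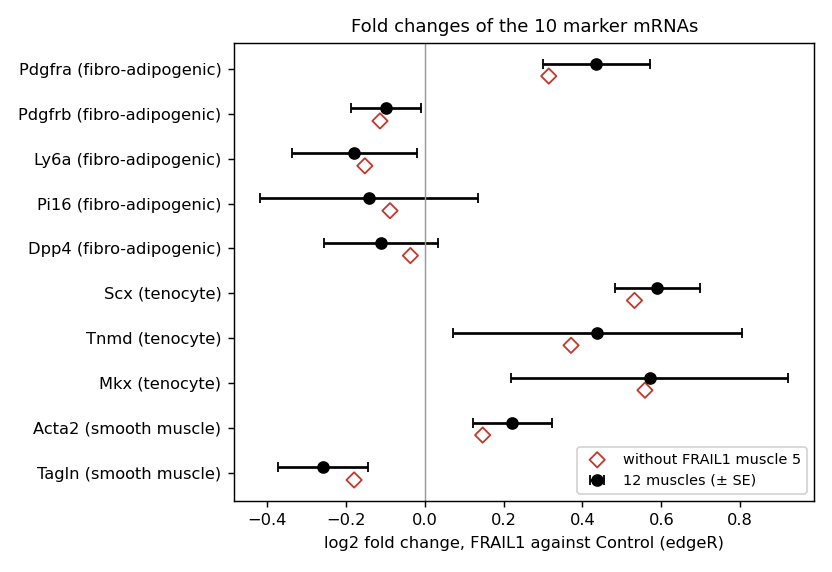
Log2 fold change of *FRAIL1* against Control muscles for each marker (horizontal axis, edgeR; filled points with SE, 12 muscles) and the value without *FRAIL1* muscle 5 (open diamonds). *Scx* stands at 0.59 with the muscle and at 0.53 without it, *Pdgfra* moves from 0.44 to 0.31, and no marker changes sign when the muscle is left out.

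*Pdgfra* encodes the PDGF receptor α, the defining receptor of fibro-adipogenic progenitors (chromosome 5, 75152292 to 75198215 of GRCm38, plus strand). Its level was 11.5, 16.1 and 19.2 CPM (lowest, median and highest) in Control muscles and 18.0, 20.1 and 29.9 CPM in *FRAIL1* muscles. Within each of the 6 mice the *FRAIL1* leg had the higher level, which 11.5% of all genes also showed, but the groups overlapped, and muscle 5 alone was above 21.3 CPM. The fold change was 1.35 (log2 0.44 ± 0.14, SE), and the adjusted p of 0.0661 in edgeR's test missed the threshold. Without *FRAIL1* muscle 5 the log2 value was 0.31 with an adjusted p of 0.0979, and without *FRAIL1* muscle 3 it was 0.48 with an adjusted p of 0.0401. DESeq2 called the gene with an adjusted p of 0.0265, where 8.26% of all genes were called higher, and with the mouse as a block in DESeq2 the adjusted p was 0.0067, where 9.52% were. On the opposite strand, the noncoding gene *Gm42802* covers 4.55% of its exonic bases, and a strand setting of the counting is not given in the sources used here.

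*Pdgfrb*, the PDGF receptor β of pericytes, smooth muscle and fibroblasts (chromosome 18, 61045150 to 61085061, plus strand), did not follow *Pdgfra*. It was at 36.7, 50.9 and 57.5 CPM in Control and 43.2, 46.7 and 50.4 CPM in *FRAIL1* muscles. The *FRAIL1* values lay inside the Control range, and 5 of 6 mice were lower (log2 -0.10 ± 0.09, adjusted p = 0.498). The 4 genes for PDGF ligands held no call in edgeR or DESeq2 and 1 lower gene at an unadjusted p under 0.05, with a median log2 fold change of 0.0070. The most abundant of them, *Pdgfb*, had a median of 44.5 CPM in Control and 46.4 CPM in *FRAIL1* muscles (log2 0.02 ± 0.07), and *Pdgfa*, whose product binds the α receptor, had medians of 22.0 and 21.4 CPM (log2 -0.0023 ± 0.07).

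Because both receptors were counted in the same muscle, their ratio needs no scaling between libraries. Counts of *Pdgfra* per count of *Pdgfrb* were 0.266, 0.309 and 0.377 (lowest, median and highest) in Control muscles and 0.358, 0.452 and 0.615 in *FRAIL1* muscles. In 6 of 6 mice the *FRAIL1* leg had the higher ratio, and 5 *FRAIL1* muscles were above the highest Control muscle. This ratio was chosen after the values of both genes were seen, so it is a description without a test. It shows unequal change of the pair and not which of them moved.

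*Ly6a* encodes Sca-1, the surface antigen by which fibro-adipogenic progenitors are sorted, which endothelial cells carry as well (chromosome 15, 74994877 to 74998031, minus strand). It was the most abundant marker per length, at 57.1, 84.2 and 105.7 CPM in Control and 50.4, 75.2 and 88.6 CPM in *FRAIL1* muscles. The ranges overlapped, with lower values in 5 of 6 mice (log2 -0.18 ± 0.16, adjusted p = 0.492). Among 5 tested genes of the same Ly6 family, 1 was called lower, where 1.85% of all genes were. It was *Ly6c1*, an antigen of endothelial cells and monocytes. *Ly6c1* had medians of 67.7 CPM in Control and 51.8 CPM in *FRAIL1* muscles, without overlap of the groups (log2 -0.41 ± 0.09, adjusted p = 0.0250).

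*Pi16* (a secreted peptidase inhibitor, chromosome 17, 29317680 to 29330593, plus strand) and *Dpp4* (the surface peptidase CD26, chromosome 2, 62330073 to 62412231, minus strand) mark the adventitial subset. *Pi16* varied widely among Control muscles, with 6.69, 21.2 and 27.6 CPM, against 14.3, 17.1 and 21.6 CPM in *FRAIL1* muscles. The lowest value belonged to Control muscle 1, and the *FRAIL1* values lay within the Control range. The log2 fold change of *Pi16* was -0.14 ± 0.28 (adjusted p = 0.777), and single muscles moved it from -0.32 without Control muscle 1 to -0.02 without Control muscle 5. Its sign turned in 3 of 24 alternative settings, to values of at most 0.13. *Dpp4* was at 3.21, 4.12 and 4.59 CPM in Control and at 2.75, 3.82 and 5.07 CPM in *FRAIL1* muscles, so that the *FRAIL1* muscles spread to both sides of the Control range (log2 -0.11 ± 0.14, adjusted p = 0.649, and log2 -0.04 without *FRAIL1* muscle 5).

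Lists of fibroblast genes give the setting of these markers. Of 12 genes of adventitial fibroblasts, 1 was called higher and none lower, where 4.43% of all genes were called higher and 1.85% lower. Their median log2 fold change was 0.05. The called gene was *Cd55*, a regulator of complement on the cell surface, at 39.1 to 49.2 CPM in Control and 55.5 to 85.1 CPM in *FRAIL1* muscles (log2 0.50 ± 0.10, adjusted p = 0.0124). Its log2 value was 0.39 without *FRAIL1* muscle 5. Of 15 genes of interstitial fibroblasts, none was called by edgeR, 4 higher and 1 lower had an unadjusted p under 0.05, and the median was 0.08. Their most abundant genes were *Gsn*, the actin-severing protein gelsolin, with medians of 490.2 and 437.0 CPM, and the proteoglycan *Dcn*, with 184.7 and 189.2 CPM. DESeq2 called 1 gene of the interstitial list higher and 1 lower, where it called 8.26% of all genes higher and 951 of 15502 lower. Blocked by mouse in edgeR, 1 gene of this list was called higher, and of the adventitial list 1 higher and 1 lower. Of all genes 7.48% were then called higher and 6.62% lower.

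Genes of activated fibroblasts moved otherwise. Of 12 such genes, 7 were called higher and none lower, where 4.43% of all genes were called higher. All 12 had positive fold changes with a median of 0.85 on the log2 scale. The list was chosen with earlier results of these data known and its genes are not independent of each other, so these counts are a description without a test. The largest changes were those of *Postn*, *Ltbp2* and *Cthrc1*. *Postn*, the matrix protein periostin, was at 39.2, 49.8 and 70.7 CPM in Control and 74.7, 120.5 and 434.7 CPM in *FRAIL1* muscles (log2 1.60 ± 0.42, adjusted p = 0.0470, and log2 1.02 without *FRAIL1* muscle 5). *Cthrc1*, a secreted protein of activated fibroblasts, was at 1.39 to 2.80 CPM in Control and 3.24 to 12.4 CPM in *FRAIL1* muscles (log2 1.40 ± 0.33, adjusted p = 0.0320). Its log2 value was 0.99 without *FRAIL1* muscle 5. *Ltbp2*, a protein of elastic microfibrils, was at 1.16 to 3.40 CPM in Control and 3.20 to 10.4 CPM in *FRAIL1* muscles, and these ranges overlapped (log2 1.56 ± 0.39, adjusted p = 0.0397). The highest values of *Postn* and *Cthrc1* were those of *FRAIL1* muscle 5. Without it 6 of the 12 genes were called, *Ltbp2* no longer among them (adjusted p = 0.0788), and the median was 0.73. The other called genes were *Adam12*, *Cdh11*, *Tnc* and *Timp1*. Blocked by mouse, *Postn* and *Cthrc1* had adjusted p of 0.109 and 0.0625 and 5 genes were called, where 7.48% of all genes were called higher. Calls of this list changed when single muscles were left out, and so did calls over all genes. List calls numbered 1 without Control muscle 3, and 2 without Control muscle 1, 5 or 6 or *FRAIL1* muscle 1. They numbered 3 without Control muscle 2 or *FRAIL1* muscle 4, and 6 to 8 without each of the other 5. Over all genes, 687 were called higher with all muscles and 330 without Control muscle 3. Leaving out 1 muscle gave between 314 and 1228 such genes, and the list median stayed between 0.73 and 0.98. DESeq2 called 8 of the 12 genes, where 8.26% of all genes were called higher.

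Adipocyte genes, the other fate of fibro-adipogenic cells, held no call in edgeR among 8 tested, with 1 higher and 3 lower at an unadjusted p under 0.05. DESeq2 called 1 of them lower, where it called 951 of 15502 genes lower. Of the 8 fold changes 6 were negative, with a median of -0.67 on the log2 scale that rested on Control muscle 5: without it the median was -0.21, and without both muscles numbered 5 it was -0.23. The most abundant was *Fabp4*, a fatty acid carrier of adipocytes and capillary endothelium, with medians of 138.2 CPM in Control and 123.2 CPM in *FRAIL1* muscles and lower values in 6 of 6 mice (log2 -0.25 ± 0.08, adjusted p = 0.0660, and 0.0179 with the mouse as a block). *Cebpa*, an adipocyte transcription factor, had medians of 8.32 and 12.8 CPM (log2 0.54 ± 0.21, adjusted p = 0.124).

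*Scx* encodes Scleraxis, the transcription factor that starts the tendon program (chromosome 15, 76457452 to 76459458, plus strand). Its level was 6.76, 7.68 and 8.61 CPM (lowest, median and highest) in Control muscles and 9.30, 11.3 and 13.8 CPM in *FRAIL1* muscles. The groups did not overlap, the lowest *FRAIL1* value being above the highest Control value. Of all genes 3.12% were higher without overlap in this way and 1.77% lower, and no other marker was among them. *Scx* rose 1.51-fold (log2 0.59 ± 0.11, SE, adjusted p = 0.0102, higher in 6 of 6 mice). It was called in all 24 alternative settings, with log2 values from 0.52 to 0.65, and without *FRAIL1* muscle 5 the value was 0.53 with an adjusted p of 0.0084. Raw counts lay between 330 and 797 per muscle. The gene sits within *Bop1*, a ribosome biogenesis gene on the opposite strand, and shares no exonic base with it. *Bop1* itself was at 36.9 to 42.4 CPM in Control and 40.6 to 45.3 CPM in *FRAIL1* muscles (log2 0.09 ± 0.05, adjusted p = 0.241).

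*Tnmd* encodes tenomodulin, a membrane protein of mature tenocytes (chromosome X, 133850980 to 133865577, plus strand). It was at 2.69, 3.51 and 8.58 CPM in Control and 2.95, 6.15 and 11.8 CPM in *FRAIL1* muscles. The ranges overlapped almost in full, because 2 Control muscles, numbers 4 and 6, were at 7.81 and 8.58 CPM. In 5 of 6 mice it was higher (log2 0.44 ± 0.37, adjusted p = 0.464). The log2 value was 0.19 without *FRAIL1* muscle 6 and 0.67 without Control muscle 6. A block for the mouse brought its adjusted p to 0.119 in edgeR and to 0.0495 in DESeq2.

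*Mkx*, the homeobox factor Mohawk (chromosome 18, 6934518 to 7004780, minus strand), was the least abundant marker with 13 to 106 counts per muscle. It was at 0.553, 0.741 and 1.08 CPM in Control and 0.254, 1.18 and 2.08 CPM in *FRAIL1* muscles. *FRAIL1* muscles spread to both sides of the Control range (log2 0.57 ± 0.35, adjusted p = 0.306). Its SE of 0.35 compares with 0.11 for *Scx*, and its log2 value depended on single muscles, with 0.31 without *FRAIL1* muscle 6 and 0.77 without *FRAIL1* muscle 1.

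The tendon list of 14 genes, which holds none of the 3 markers, had 2 genes called higher and none lower, against 4.43% and 1.85% of all genes. It had 11 positive fold changes and a median of 0.30. *Cilp*, a cartilage and tendon matrix protein, was at 40.0 to 57.9 CPM in Control and 77.5 to 317.3 CPM in *FRAIL1* muscles (log2 1.43 ± 0.33, adjusted p = 0.0327, and log2 0.93 without *FRAIL1* muscle 5). *Thbs4*, the thrombospondin of the muscle-tendon junction, was at 97.3 to 188.8 CPM in Control and 167.8 to 334.1 CPM in *FRAIL1* muscles (log2 0.78 ± 0.20, adjusted p = 0.0431). The summed level of the list was 210.7 to 441.1 CPM in Control and 364.6 to 667.4 CPM in *FRAIL1* muscles, higher in 6 of 6 mice. The rise of this sum rests largely on *Thbs4* and *Cilp*, with means of 135.2 and 48.3 CPM in Control and 232.4 and 129.6 CPM in *FRAIL1* muscles. *Fmod*, also abundant, had means of 56.1 and 61.4 CPM. The sum does not describe the list as a whole, where 3 fold changes were negative. Without *FRAIL1* muscle 5, 1 gene of the list was called, *Cilp*, and *Thbs4* had an adjusted p of 0.0892. No gene of the list was called without Control muscle 1, 2, 3 or 5 or *FRAIL1* muscle 1. In these fits 333, 347, 330, 407 and 314 of all genes were called higher, against 687 with all muscles. In the list 1 gene was called without Control muscle 4 or *FRAIL1* muscle 4 or 6, where 409, 417 and 501 of all genes were called higher. With 1 muscle left out, log2 values were 0.65 to 0.90 for *Thbs4* and 0.93 to 1.53 for *Cilp*. The list median was then 0.05 to 0.49. Blocked by mouse, 3 genes were called, where 7.48% of all genes were called higher, and *Cilp* was not among the 3 (adjusted p = 0.0708). Of 3 tested cartilage genes, *Sox9*, the chondrocyte and tendon-attachment factor, was called higher, from 3.24 to 5.18 CPM in Control to 5.48 to 10.0 CPM in *FRAIL1* muscles (log2 0.70 ± 0.15, adjusted p = 0.0208).

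How far the markers of a cell type vary together was then described over the 12 muscles, as the correlation of their log2 levels after the group mean was taken out. Among the 45 pairs of markers none passed an adjusted p of 0.05 in the permutation test, and 4 had an unadjusted p under 0.05, 3 by Pearson's r and 2 by Spearman's rho. *Tnmd* and *Mkx* had Pearson's r = 0.77 (permutation p = 0.0033, adjusted 0.150) and Spearman's rho = 0.69 (permutation p = 0.0216, adjusted 0.773), and r was 0.78 without the 2 muscles farthest from the median of *Tnmd*. *Pdgfrb* and *Pi16* had r = 0.80 (permutation p = 0.0373, adjusted 0.559) and rho = 0.57 (permutation p = 0.0852, adjusted 0.773), and r was 0.29 without the 2 farthest muscles, so this relation rests on them. *Pi16* and *Dpp4* had r = 0.52 (permutation p = 0.0307, adjusted 0.559) and rho = 0.33 (permutation p = 0.288, adjusted 0.852), and r was 0.28 without Control muscle 1. *Pdgfrb* and *Acta2* had r = 0.53 (permutation p = 0.0752, adjusted 0.677) and rho = 0.63 (permutation p = 0.0365, adjusted 0.773), and r was 0.74 without the 2 farthest muscles. For *Scx* and the other tenocyte markers r was close to 0, with 0.00076 for *Tnmd* and 0.06 for *Mkx* (permutation p = 0.998 and 0.914, adjusted 0.998 for both).

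The tendon genes sorted the 3 markers in the same way. The median r of the 14 tendon genes was 0.78 with *Tnmd*, 0.58 with *Mkx* and -0.08 with *Scx*. Over all genes compared, the median r with *Tnmd* was -0.01. Of the 14, 10 had r above 0.7 with *Tnmd*, where 1.07% of all genes did, and none had it with *Scx*. *Comp*, the cartilage oligomeric matrix protein, had r = 0.93 with *Tnmd* and 0.0084 with *Scx*. *Cilp* and *Myoc* were the 2 genes least related to *Tnmd*, with r = 0.31 and 0.29. These values are over the same 12 libraries and the genes are not independent of each other, so they are descriptions without a test.

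**Figure D3:**
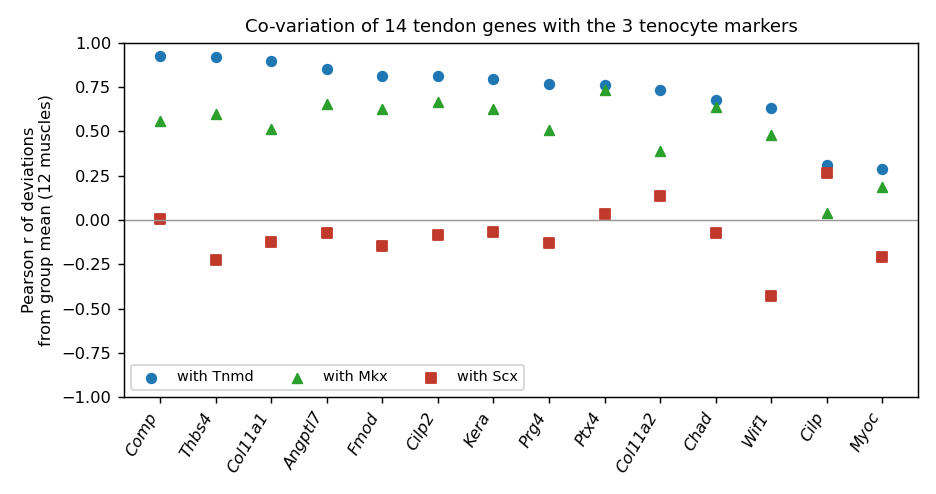
Pearson correlation (vertical axis, -1 to 1) of 14 tendon genes with *Tnmd* (circles), *Mkx* (triangles) and *Scx* (squares), over deviations from the group mean in 12 muscles. Circles lie between 0.29 and 0.93, triangles between 0.04 and 0.73, and squares between -0.43 and 0.26.

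*Acta2* encodes α-smooth muscle actin of vessel walls and myofibroblasts (chromosome 19, 34241090 to 34255590, minus strand), and serum response factor binds CArG boxes in its promoter. The RefSeq promoter table (GRCm38.p6, 250 bases before to 50 after the start) held 5 of the 10 markers. It lacked *Tagln*, *Pdgfrb*, *Ly6a*, *Scx* and *Mkx*, so whether these hold such boxes was not examined. It was searched for CArG-like boxes, a pair of C, 6 bases of which at most 1 is C or G, and a pair of G, a form that reads the same on both strands. *Acta2* held 2, and *Pdgfra*, *Pi16*, *Dpp4* and *Tnmd* held none. At least 1 was present in 9.98% of 32851 promoters and at least 2 in 0.822%. Both boxes of *Acta2* are shown, since its promoter is known for them. They are printed in capitals with 10 bases to each side, at chr19:34255438-34255467 and chr19:34255388-34255417 (minus strand, in an exon of a GENCODE transcript that starts further upstream). A box with only A and T in its 6 central bases, found in 1.63% of promoters, was not in this window. A match of letters is not a measured binding site.
*Acta2* box 1: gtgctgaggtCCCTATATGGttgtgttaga
*Acta2* box 2: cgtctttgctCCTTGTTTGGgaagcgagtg

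The level of *Acta2* was 66.6, 76.2 and 93.8 CPM in Control and 74.2, 89.5 and 113.5 CPM in *FRAIL1* muscles. The groups overlapped, 4 of 6 mice were higher, and muscle 5 was the highest *FRAIL1* muscle. The fold change was 1.17 (log2 0.22 ± 0.10, adjusted p = 0.163), and without *FRAIL1* muscle 5 the log2 value was 0.15. *Tagln*, transgelin, an actin-binding protein of smooth muscle (chromosome 9, 45929619 to 45936058, minus strand), was at 33.8, 42.6 and 53.3 CPM in Control and 25.6, 36.8 and 40.8 CPM in *FRAIL1* muscles. In 5 of 6 mice it was lower, and muscle 5 was the lowest of all 12. Its fold change was 0.836 (log2 -0.26 ± 0.11, adjusted p = 0.162), and without *FRAIL1* muscle 5 the log2 value was -0.18. The antisense gene *Gm48529* covers 62.4% of the exonic bases of *Tagln* and *Pcsk7* covers 5.43%. If strand was not used, counts of *Tagln* may have gained or lost reads over the shared bases, in a direction that is not known. *Pcsk7* had a log2 fold change of -0.00091 ± 0.07.

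Counts of *Acta2* per count of *Tagln* were 1.68, 1.79 and 1.97 in Control muscles and 1.96, 2.37 and 4.44 in *FRAIL1* muscles. This ratio too was higher on the *FRAIL1* side in 6 of 6 mice, with 5 *FRAIL1* muscles above the highest Control muscle. As with the PDGF receptors, the ratio was chosen after the values were seen and carries no test.

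**Figure D4:**
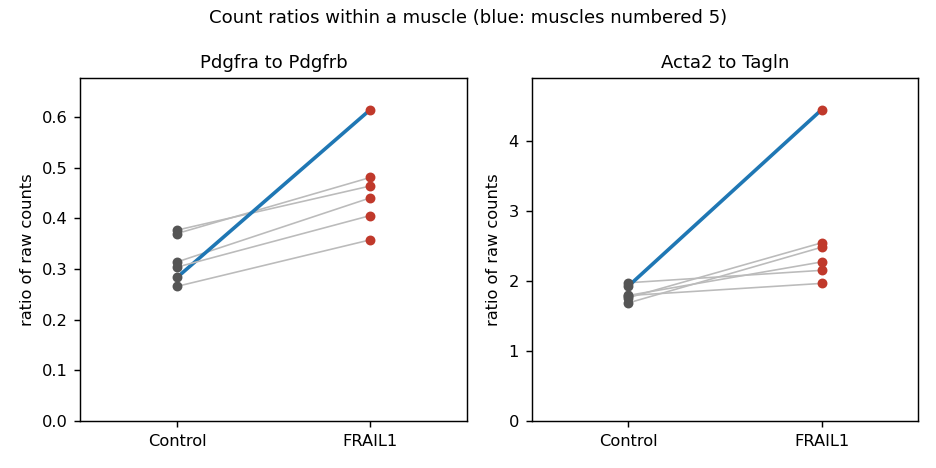
Ratio of raw counts within each muscle (vertical axis, from 0) for *Pdgfra* to *Pdgfrb* and *Acta2* to *Tagln*, with lines between muscles of the same number. Both ratios go up along all 6 lines, from medians of 0.309 to 0.452 and of 1.79 to 2.37, and the blue line of muscles numbered 5 ends highest in both panels.

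Other genes of the vessel wall and of actin control gave this background. Over all genes, edgeR called 4.43% higher and 1.85% lower, and 7.48% and 6.62% with the mouse as a block. DESeq2 called 951 of 15502 genes lower. Of 10 tested smooth muscle genes besides the 2 markers, none was called by edgeR, 1 lower had an unadjusted p under 0.05, 1 was called lower by DESeq2, 8 fold changes were negative and the median was -0.21. The most abundant were *Synpo2*, an actin-binding protein that muscle fibers express as well, with medians of 720.4 and 613.3 CPM, and *Smtn*, smoothelin, with 87.8 and 89.0 CPM. The median r of these genes over deviations from the group mean was 0.63 with *Tagln* and 0.15 with *Acta2*. With *Tagln*, the median r was also 0.54 for muscle fiber genes and -0.65 for genes of satellite cells and regenerating fibers. With *Acta2* these values were -0.05 and 0.50. A positive median r with *Tagln* was thus not limited to smooth muscle genes. These r were not computed without the *FRAIL1* muscle that had the lowest *Tagln* level. Of 14 pericyte genes 1 was called, *Steap4*, a metalloreductase, with medians of 47.2 CPM in Control and 40.3 CPM in *FRAIL1* muscles (log2 -0.25 ± 0.06, adjusted p = 0.0330). With the mouse as a block 4 pericyte genes were called lower and 1 higher. Of 14 genes of serum response factor and the actin cytoskeleton 1 was called, *Fhl2*, a LIM-domain cofactor, higher from a median of 1.66 to 2.27 CPM (log2 0.63 ± 0.15, adjusted p = 0.0254). Blocked by mouse, 2 genes of this list were called higher and 1 lower.

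Markers of further cell types moved in the same muscles, where edgeR called 4.43% of all genes higher and 1.85% lower. All 7 genes of satellite cells and regenerating fibers had positive fold changes, 4 were called, and their summed level was 168.3 to 217.7 CPM in Control and 330.2 to 1558 CPM in *FRAIL1* muscles, highest in muscle 5. *Myh3*, embryonic myosin, rose from a median of 50.0 to 199.4 CPM (log2 2.16 ± 0.37, adjusted p = 0.0124). *Myh8*, perinatal myosin, rose from 100.5 to 270.7 CPM, and *Mymk*, the fusion protein myomaker, from 4.88 to 16.3 CPM. The log2 values of *Myh3* and *Myh8* were 1.69 and 1.33 without *FRAIL1* muscle 5, against 2.16 and 1.84 with it. With the mouse as a block all 7 were called, in a fit that called 7.48% of all genes higher.

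Of 8 macrophage genes, all had positive fold changes and none was called by edgeR, with 6 at an unadjusted p under 0.05. DESeq2 called 5 of them higher, where 8.26% of all genes were. In edgeR with the mouse as a block 5 were called, where 7.48% of all genes were higher, among them *Lyz2* and *C1qa* (adjusted p = 0.0396 and 0.0105). Their sum was 210.4 to 330.9 CPM in Control and 265.4 to 705.0 CPM in *FRAIL1* muscles. Medians were 123.5 and 181.0 CPM for *Lyz2*, the lysozyme of myeloid cells, and 59.0 and 96.2 CPM for *C1qa*, a complement subunit. All 8 endothelial genes had negative fold changes and 2 were called, the receptors *Flt1* (medians 50.8 and 39.5 CPM, log2 -0.48 ± 0.12, adjusted p = 0.0326) and *Tek* (31.5 and 24.3 CPM, log2 -0.41 ± 0.09, adjusted p = 0.0186). Their sum was 499.4 to 593.7 CPM in Control and 399.6 to 509.3 CPM in *FRAIL1* muscles. With the block 4 were called lower, where 6.62% of all genes were.

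No gene of 4 tested for lymphocytes was called by edgeR or DESeq2, and none had an unadjusted p under 0.05 in edgeR. These genes summed to 5.57 to 11.6 CPM in Control and 5.17 to 11.0 CPM in *FRAIL1* muscles, led by *Nkg7* with medians of 5.40 and 5.27 CPM and *Cd3e* with 1.33 and 1.09 CPM. Among 6 muscle fiber genes *Ckm* was called lower, from a median of 12292 to 10085 CPM (log2 -0.38 ± 0.11, adjusted p = 0.0482). With the block 2 were called lower, where 6.62% of all genes were. The part of these cell types in the values of the 10 markers was not tested.

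**Figure D5:**
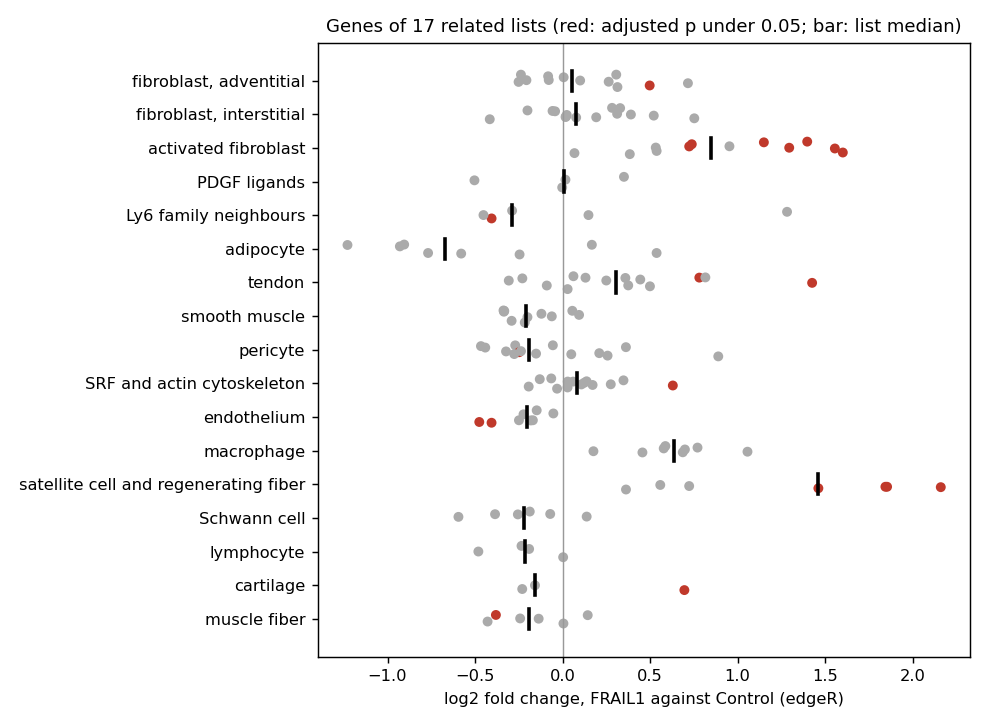
Log2 fold change of *FRAIL1* against Control muscles (horizontal axis, edgeR) for each tested gene of 17 lists of related cell types, with genes past an adjusted p of 0.05 in red and the list median as a bar. The medians lie highest for satellite cell and regenerating fiber genes (1.46) and activated fibroblast genes (0.85) and lowest for adipocyte genes (-0.67, but -0.21 without Control muscle 5, where cartilage genes are lowest at -0.32), while those of the adventitial and interstitial fibroblast lists are 0.05 and 0.08.

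The genes whose levels most resembled each marker, by Pearson's r of deviations from the group mean over 12 muscles among 13008 genes (13009 for *Mkx*), are given as descriptions. For *Tnmd* they were *Comp* (0.93), *Thbs4* (0.92) and *Col11a1* (0.90), all tendon list genes. For *Ly6a* they were *Ifitm3* (0.97), *Zbp1* (0.97) and *Cfb* (0.97), genes known to respond to interferon or inflammation. With *Ly6a*, 4 of the 5 Ly6 family genes had r above 0.7, where 4.39% of all genes did, and the adventitial and interstitial fibroblast genes had median r of -0.24 and -0.28. For *Pi16* they were *Higd1b* (0.94), a gene of the pericyte list, *Larp6* (0.90) and *Cnbd2* (0.90). For *Pdgfra* they were *Sertad4* (0.94), *Zc3hav1l* (0.94) and *Scn7a* (0.93). Its median r was 0.65 with activated fibroblast genes, 0.56 with interstitial and 0.29 with adventitial fibroblast genes. It was 0.53 with the 3 cartilage genes and 0.48 with the 7 genes of satellite cells and regenerating fibers. *FRAIL1* muscle 5 lay far above the other *FRAIL1* muscles in *Pdgfra*, *Postn* and *Cthrc1*, and these r were not computed without it.

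For *Pdgfrb* the closest genes were *Phldb1* (0.94), *Sipa1l2* (0.92) and *Gstt3* (0.88), and its median r was 0.51 with pericyte genes and 0.54 with interstitial fibroblast genes. *Dpp4* was closest to *Plbd1* (0.91), *Ncoa3* (0.89) and *Pik3cd* (0.88). *Scx* was closest to *Dcp1a* (0.88), *Id4* (0.85) and *Gpx3* (0.84), and *Mkx* to *Togaram1* (0.90), *Spata24* (0.88) and *Actr6* (0.81), none of them a tendon list gene. *Acta2* was closest to *Irf3* (0.94), *Cd81* (0.93) and *Nucb1* (0.92). *Tagln* was closest to *Coq9* (0.95), *Ethe1* (0.95) and *Mgrn1* (0.94), and 7.01% of all genes had r above 0.7 with it, against 0.461% with *Scx*.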

How the data were processed

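RNA-seq was done on 12 TA muscles, 6 Control and 6 *FRAIL1*. The authors trimmed paired-end reads (Trimmomatic), mapped them to mm10 with STAR 2.7.8a and counted them with featureCounts 2.0.1, versions per the submitters' processing notes. The deposited counts are whole numbers of reads per NCBI Gene ID without normalization. Of 27179 genes, 25275 were matched to symbols and GRCm38 positions, and the others held 0.280% of counts. No library copied another. With 44848322 or more counts per muscle, counting error matters mainly for *Mkx*, and the spread between muscles is the error given.

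Genes were filtered (filterByExpr), scaled (TMM) and tested without a block in edgeR 4.0.16 (R 4.3.3), whose quasi-likelihood test was run with robust settings and Benjamini-Hochberg adjustment. The scripts were tested on simulated data. Correlations used log2(CPM + 0.5) and 100000 permutations, and likeness used genes of at least 1 CPM on average. BLAST 2.17.0 was used to look for copies in other transcripts (98% identity or more over 100 bases or more). *Pdgfrb*, *Ly6a*, *Dpp4*, *Scx*, *Tnmd* and *Acta2* had none, *Mkx* shared up to 201 bases with 6 genes, and *Pdgfra*, *Pi16* and *Tagln* matched genes that overlap them.

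The members and lists were chosen with earlier results of these data known. All members were named. From each list, up to 3 called genes in each direction with the largest change were named, or the 2 most abundant where none was called. Other called genes of the activated fibroblast list, and list genes singled out for their correlation or lost calls, were named after their values were seen. The genes of 1 of the 17 lists are not reported here. Alternatives were a replicate block for the mouse, scaling by upper quartile, by the size factors of DESeq2 or by TMM after removal of mitochondrial genes and the 20 largest genes, a filter of 10 counts per muscle or none, DESeq2 1.42.0 with and without the block, limma voom 3.58.1 with quality weights, a fit that was not robust, each muscle left out, and both muscles numbered 5 left out with and without the block.

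The study design places both plasmids in the legs of 1 mouse, and muscles that share a number were taken to be from 1 mouse. Their deviations from the group means correlated by 0.322, 0.197, 0.350, 0.321, 0.0723 and 0.228 for numbers 1 to 6, against -0.0739 to -0.0092 with other numbers.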

Additional observations from a re-analysis of the deposited data

Results flagged for a closer look

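A muscle far from the other 5 of its group was looked for with Dixon's test, which by chance flags about 1 in 20 groups, in 80 groups: the Control and the *FRAIL1* muscles for each of the 10 markers and 30 list genes named by rule, many of them for their large change. It marked 8, all of them *FRAIL1* muscle 5. Over all 160 tested markers and list genes (320 groups) it marked 40, of which 27 were *FRAIL1* muscle 5, 3 *FRAIL1* muscle 6, 4 Control muscle 5, 3 Control muscle 6, 2 Control muscle 1 and 1 Control muscle 4. Named values follow. Of the markers there were 2: *Pdgfra* at 29.9 CPM, with the other *FRAIL1* muscles at 18.0 to 21.3 CPM, and *Tagln* at 25.6 CPM, with the others at 35.6 to 40.8 CPM. Fibroblast genes numbered 3: *Cd55* at 85.1 CPM against 55.5 to 65.1 CPM, *Postn* at 434.7 CPM against 74.7 to 151.9 CPM, and *Cthrc1* at 12.4 CPM against 3.24 to 6.45 CPM. The tendon gene *Cilp* was at 317.3 CPM against 77.5 to 107.8 CPM. The myosins of regenerating fibers were at 541.1 CPM against 104.5 to 216.1 CPM for *Myh3* and at 875.4 CPM against 153.2 to 389.6 CPM for *Myh8*. *Scx*, at 13.8 CPM in this muscle, was not marked, and *FRAIL1* muscle 2 was at 13.7 CPM.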

How the results depend on the processing

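The count of markers called higher was 1, *Scx*, where 4.43% of all genes were called higher. It was 2 by DESeq2, where 8.26% of all genes were, and 3 by DESeq2 with the mouse as a replicate block, where 9.52% were. In the fit with the block without both muscles numbered 5 it was 2, where 1093 of 15525 genes were called higher. It ranged from 1 to 2 when single muscles were left out, with 2 without *FRAIL1* muscle 3, where 1228 of 15607 genes were called higher. The added genes were *Pdgfra* in each case and *Tnmd* (adjusted p = 0.0495) in DESeq2 with the block. In edgeR with the block, where 7.48% of all genes were called higher, the count stayed at 1 and the adjusted p of *Scx* was 0.0055. No marker was called lower in any of the 24 alternatives. Of 240 fold changes of markers under alternatives, 232 kept their direction and their side of the threshold, 5 passed it anew, and 3 turned, all of *Pi16*: 0.0066 with limma voom, 0.035 without both muscles numbered 5 and 0.13 without both with the block (log2). Over all genes, calls numbered 974, 2186 with the block, 2232 by DESeq2, 2898 by DESeq2 with the block, 1836 by limma voom and between 364 and 2110 when 1 muscle was left out, the lowest without *FRAIL1* muscle 1 and the highest without number 3. The cause was not tested. Of 816 counts of list genes under alternatives, 135 moved, either by over 1.5 times or between none and some. When single muscles were left out, the named list genes *Cd55*, *Tek*, *Myh3* and *Mymk* passed in all 12 fits, *Sox9* in 11, *Ly6c1* and *Myh8* in 10, *Fhl2* in 8, *Cthrc1* and *Steap4* in 7, *Cilp* and *Flt1* in 5, *Postn*, *Ltbp2* and *Thbs4* in 4, and *Ckm* in 3.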

Other observations

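Within the 6 Control muscles, *Acta2* and *Tagln* varied together (r = 0.92), while within the 6 *FRAIL1* muscles r was -0.76. Each value rests on 6 muscles, *FRAIL1* muscle 5 holds the highest *Acta2* and the lowest *Tagln* level of its group, and the difference between the values was not tested.

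Further ratios of counts within a muscle were computed. *Pi16* per count of *Dpp4* was 2.08, 5.09 and 6.53 (lowest, median and highest) in Control and 3.76, 4.69 and 5.83 in *FRAIL1* muscles, higher in 2 of 6 mice. *Scx* per count of *Tnmd* was 0.865, 2.17 and 3.20 in Control and 1.05, 1.64 and 3.49 in *FRAIL1* muscles, higher in 4 of 6 mice. *Tnmd* itself was at 2.69 to 8.58 CPM in Control and 2.95 to 11.8 CPM in *FRAIL1* muscles. With that spread this ratio cannot show whether the 2 genes changed alike.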
